A study of Bos taurus with 6 samples.

Results

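The miRNAs described here are those of bta-miR-150, bta-miR-142 and the bta-miR-181 family, which are known from lymphocytes and other blood cells, as counted in extracellular vesicles (EVs) of cow milk. The rule was a list of names that uses no measured value, and 6 of the 276 known bovine miRNAs in the count table matched, namely bta-miR-150, bta-miR-181a, bta-miR-181b, bta-miR-181d, bta-miR-142-5p and bta-miR-142-3p. Another family member, bta-miR-181c, had no row in the count table and could not be analysed. The EVs came from the milk of 6 Holstein cows in mid lactation (101 ± 10 days in milk), which were kept in climate chambers at the same temperature and humidity. The control diet of 3 cows was a total mixed ration, TMR, and in the replacement diet of the other 3 cows whole cotton seed and soybean hull took over part of the alfalfa hay. Each cow gave 1 small RNA library and ate 1 diet, so an effect of the diet and of the cows that received it cannot be told apart.

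A miRNA is cut from a hairpin precursor, and either arm of the hairpin (5p or 3p) can be loaded as the mature strand. The seed, bases 2 to 8, sets most of the pairing with target mRNAs, so miRNAs with the same seed are grouped as a family. Mature B and T cells are rich in miR-150, which represses the transcription factor MYB. Expression of miR-142 is largely restricted to blood cells, and miR-181a is known for tuning T cell receptor signalling in the thymus, though many other tissues also express it. Milk holds leukocytes beside mammary epithelial cells, and EVs of either can carry miRNAs.

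The 6 mature sequences in the deposited table, written 5′ to 3′ with the seed in capitals, show which of the listed sequences have the same seed:
bta-miR-150: tCTCCCAAcccttgtaccagtgt
bta-miR-142-5p: cATAAAGTagaaagcactac
bta-miR-142-3p: aGTGTTTCctactttatggatg
bta-miR-181a: aACATTCAacgctgtcggtgagtt
bta-miR-181b: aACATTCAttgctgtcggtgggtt
bta-miR-181d: aACATTCAttgttgtcggtgggt

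The 3 miR-181 members shared 1 seed, and no other row of the table, known or predicted, had it. The seeds of bta-miR-150 and of the miR-142 arms were not found in any other row. Counting positions from 1 at the 5′ end and reading bta-miR-181a first, bta-miR-181b differed by A9T, C10T and A21G. From bta-miR-181b to bta-miR-181d the difference was C12T and 1 base less at the 3′ end. These were the closest relatives of any member in the table, and how the authors counted reads that match several miRNAs is not given in the sources used here, so the split of reads within the miR-181 family is uncertain. For bta-miR-150 and both miR-142 arms, the nearest sequence in the table was at least 8 edits away. The arms of miR-142 are partly complementary, with the longest run of A-T and G-C pairs shown in capitals:
bta-miR-142-5p: CATAAAGTAGaaagcactac
bta-miR-142-3p: agtgtttcCTACTTTATGgatg
This run covered 10 bases and took in the whole seed of the 5p arm, whereas the seed of the listed 3p sequence lay upstream of it.

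RefSeq lists 8 precursor genes with these names on the assembly ARS-UCD2.0. Since the reads had been aligned to ARS-UCD1.2, only neighbours are given. The gene MIR142 lay within the spans of TSPOAP1 and of a long non-coding RNA gene. No annotated gene spanned MIR150, and no other miRNA gene lay within 10 kb of it. The miR-181 genes stood in 3 pairs. MIR181A-1 lay beside MIR181B-1, and MIR181C beside MIR181D within NANOS3. MIR181A-2 lay beside MIR181B-2, within NR6A1 and a long non-coding RNA gene. A count of bta-miR-181a or bta-miR-181b can therefore come from 2 loci.

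Known miRNAs received 61156 to 176919 counts per cow, which were 15.8% to 42.0% of all miRNA counts, the rest being predicted miRNAs. Levels are given as a percentage of the known counts of the same cow. At this depth 3 counts corresponded to 0.00170% to 0.00491%, the share that a miRNA without a count could still hold. The intervals given below are 95% Clopper-Pearson intervals and, like this limit, cover counting error only, since PCR copies are not independent molecules. The library of control cow 3 stood apart in red blood cell miRNAs. There, the 7 miRNAs of that list in the table (bta-miR-451, bta-miR-486, bta-miR-144 and others) held 20.1% of the known counts, against 6.52% to 10.9% in the other cows. The shares of the 4 more abundant members are therefore also given with that list taken out of the total.

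The most abundant of the 6 members was bta-miR-150. It held 1.51% ± 0.447 (SD, n = 6 cows) of the known counts and ranked 17th among them. The counts were 922, 3174 and 1168 in control cows 1 to 3 and 1883, 945 and 1285 in replacement cows 1 to 3. As shares these were 1.31%, 1.97% and 1.91% on the control diet and 1.06%, 0.982% and 1.85% on the replacement diet. Cows of both diets stood in the high range near 1.9% and in the lower range, and the diets overlapped. The highest share was 2.01 times the lowest. Counting error averaged 2.72% of the value per cow, below the differences between most cows. With the red blood cell list out of the total, bta-miR-150 held 1.71% ± 0.555 (SD, n = 6), and control cow 3 was then the highest, at 2.39% against 2.12% in control cow 2. In the order of mean shares bta-miR-10b stood just above it with 1.53% and bta-miR-192 just below with 1.06%. It was above bta-miR-10b in 4 of 6 cows and above bta-miR-192 in 5 of 6, so it did not differ from bta-miR-10b beyond the spread between cows.

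The next member was bta-miR-181a, at 0.503% ± 0.0696 (SD, n = 6) and rank 33. Its shares were 0.563%, 0.508% and 0.379% in control cows 1 to 3 and 0.489%, 0.504% and 0.575% in replacement cows 1 to 3, from 232 to 865 counts. The lowest cow was control cow 3, with an interval of 0.332% to 0.431% that lay below the intervals of all other cows. This was the cow with the high red blood cell list, and with that list taken out of the total its share was 0.475%, against 0.523% to 0.645% elsewhere. It remained the lowest. The neighbours bta-miR-23a and bta-miR-10a had means of 0.503% as well and could not be ordered against it.

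The 5p arm of miR-142 was far lower, at 0.115% ± 0.0803 (SD, n = 6) and rank 66. It had 12, 170 and 114 counts in control cows 1 to 3 and 146, 62 and 162 counts in replacement cows 1 to 3. The shares were 0.0170%, 0.105% and 0.186% on the control diet and 0.0825%, 0.0644% and 0.233% on the replacement diet. Control cow 1 was the lowest, with an interval of 0.00880% to 0.0297% that did not reach the interval of any other cow, and replacement cow 3 was the highest. The range was thus 13.7-fold. These 2 cows were also the ends of the range outside the red blood cell list, at 0.0191% and 0.261%. Control cow 1 had 70490 known counts, and control cow 3, the shallowest library, had 61156. The part of depth in this range was not tested.

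The remaining miR-181 members were rarer. The share of bta-miR-181b was 0.0550% ± 0.0355 (SD, n = 6), rank 82, from 17 to 92 counts. It was lowest in replacement cow 1, at 0.0119%, and highest in replacement cow 3, at 0.109%, so both ends of its range were on the replacement diet. The control cows held 0.0440%, 0.0571% and 0.0278%. Outside the red blood cell list its lowest and highest shares were 0.0127% and 0.123%, in the same cows. All 19 counts of bta-miR-181d were in replacement cow 3, where its share was 0.0273% (0.0164% to 0.0426%). In the other 5 cows it was at 0, which allows a share of up to 0.00170% to 0.00491%.

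**Figure D1:**
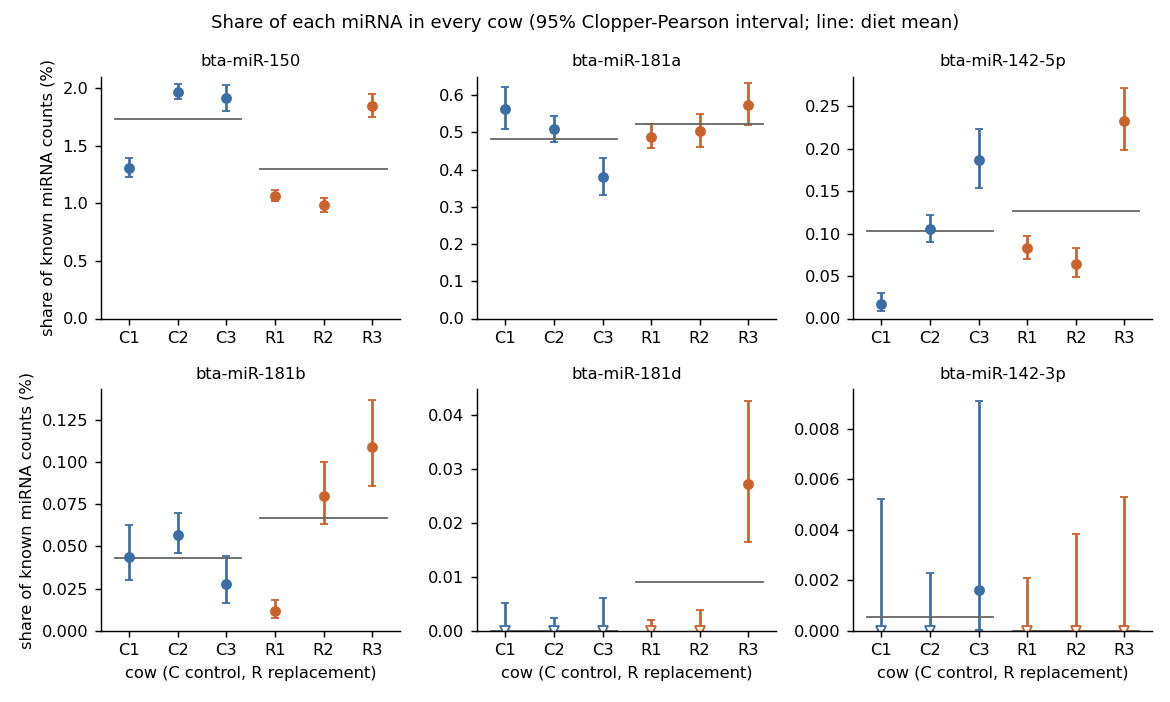
Share of the counts of known miRNAs (%, vertical axis from 0, a scale for each panel) for the 6 miRNAs in each cow, with control cows C1 to C3 in blue and replacement cows R1 to R3 in orange. Bars are 95% Clopper-Pearson intervals, lines are diet means and open triangles are cows without a count; bta-miR-142-5p ran from 0.0170% in C1 to 0.233% in R3, while the diets overlapped for the 4 miRNAs counted in every cow.

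Within a cow, the order of the main members was stable down to miR-142-5p. The counts of bta-miR-150 exceeded those of bta-miR-181a in 6 of 6 cows, by 1.95 to 5.03 times (median 2.77). In turn bta-miR-181a exceeded bta-miR-142-5p in 6 of 6 cows, by 2.04 to 33.1 times (median 5.37). The next step was not stable, since bta-miR-142-5p was above bta-miR-181b in 4 of 6 cows and the ratio ran from 0.387 to 6.95. These ratios compare counts of mature strands of 20 to 24 bases, which carry no length term, and different miRNAs can enter a library with different efficiency. In bulk EV RNA, fewer vesicles from a cell type and less of a miRNA per vesicle cannot be told apart.

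The members also differed in how much they varied between cows. For the 84 known miRNAs with at least 10 counts in every cow, the coefficient of variation (CV) of the share over the 6 cows had a median of 38.7%. The CV of bta-miR-181a was 13.8%, and 3 of the 84 had a lower one. Counting error alone would give it 4.67%. With the red blood cell list out of the total, its CV was 11.5%. For bta-miR-150 the CV was 29.6%, with 26 of the 84 below it. In contrast, the CV was 70.0% for bta-miR-142-5p and 64.5% for bta-miR-181b, with 72 and 69 of the 84 below them. In these rarer miRNAs counting error came to a mean of 12.5% and 16.2% of the value.

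**Figure D2:**
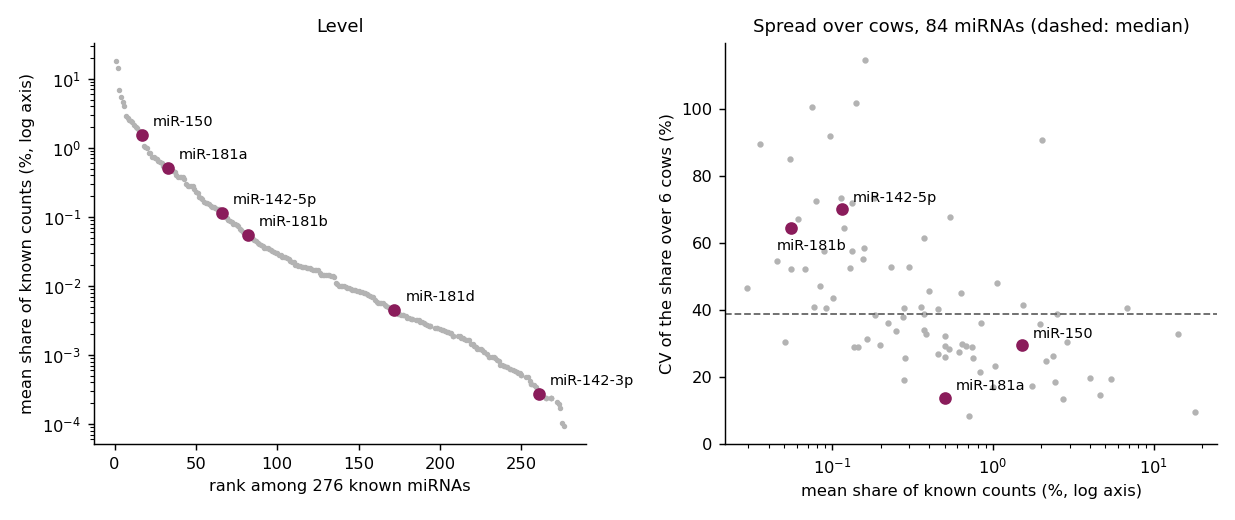
Left, the mean share of the known counts over 6 cows (%, log axis) against rank for all 276 known miRNAs (grey) with the 6 members in purple, from bta-miR-150 at rank 17 to bta-miR-142-3p at rank 261. Right, the CV of the share over 6 cows (%) against the mean share (%, log axis) for the 84 miRNAs with at least 10 counts in every cow; bta-miR-181a, at 13.8%, is far below the dashed median of 38.7% and bta-miR-142-5p, at 70.0%, is above it.

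The relative profiles of the members over the cows were compared with those of other known miRNAs. Likeness was measured as the root mean square, over the 6 cows, of the difference between log2 shares after each miRNA was centred on its own mean, so that 0 means the same relative profile. For bta-miR-150 the closest of 83 known miRNAs were bta-let-7i at 0.26, bta-miR-92a at 0.32 and bta-let-7a-5p at 0.34, where the median was 0.68. Its distance to bta-miR-181a was 0.49, which made it the 18th closest, and its distance to bta-miR-142-5p was 1.04, which placed that miRNA 73rd of the 83. Seen from bta-miR-142-5p, whose distances are larger in general, bta-miR-150 was the 9th closest. The profile of bta-miR-181a was closest to bta-miR-26a (0.13), bta-miR-27b (0.17) and bta-miR-10a (0.19), and bta-miR-181b, encoded beside it at 2 loci, was 68th at 0.96, while bta-miR-181a was 18th seen from bta-miR-181b. For bta-miR-142-5p the closest were bta-miR-339a (0.72), bta-miR-26b (0.76) and bta-miR-374a (0.92), with a median of 1.34 over the 83. For bta-miR-181b they were bta-miR-375 (0.57), bta-miR-27a-3p (0.68) and bta-miR-155 (0.71), with a median of 1.07. Profiles that vary little lie close to each other by this measure, and these distances are descriptions of 6 cows.

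**Figure D3:**
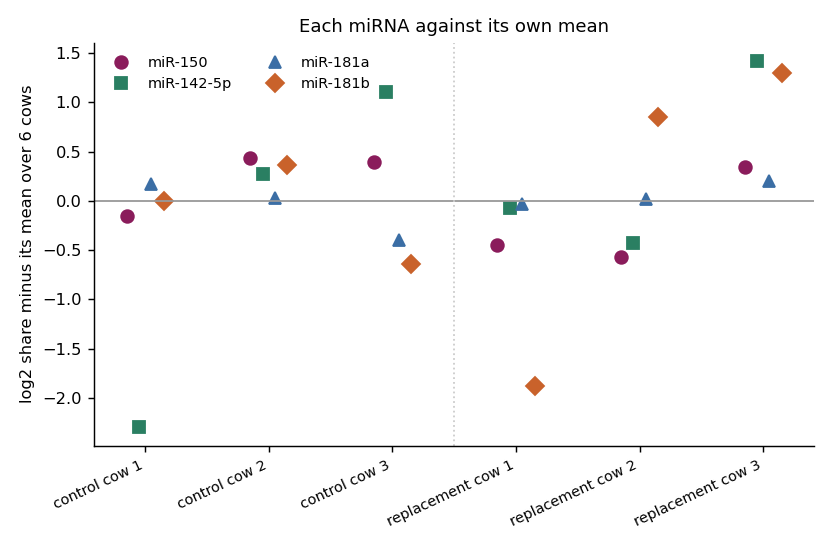
Log2 share of 4 miRNAs in each cow after subtraction of that miRNA's mean over the 6 cows (vertical axis), with the control cows left of the dotted line. The points of bta-miR-181a stay between -0.39 and 0.20, while bta-miR-142-5p falls to -2.30 in control cow 1 and bta-miR-181b to -1.88 in replacement cow 1.

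The listed mature sequences of the miR-142 arms were counted very unequally. Of their 667 counts, 666 were on the 5p arm, a share of 99.85% (99.17% to 99.996%). The 1 count of the 3p arm was in control cow 3, beside 114 counts of the 5p arm. The other 5 cows had 12 to 170 counts on the 5p arm and 0 on the 3p arm, so the 5p share was 100% in each, with a lower limit of 73.5% in control cow 1 and of 94.2% to 97.9% in the other 4. With 1 count against 0, the arms could not be compared between diets. Among the hairpins with both arms listed, 9 had at least 100 counts, and the share of their major arm ran from 53.1% in miR-126 to 99.85% in miR-142, with a median of 94.6%. For 4 of the 9 the 5p arm was the major one. The hairpin nearest to miR-142 in this respect was that of miR-22, where 0.438% of the counts were on the 5p arm. Many hairpins have only 1 arm in the table and are not part of this comparison. How far a read may deviate from the annotated ends and still be counted is not given in the sources used here, so these counts hold for the mature 3p sequence printed above and not for every product of that arm.

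**Figure D4:**
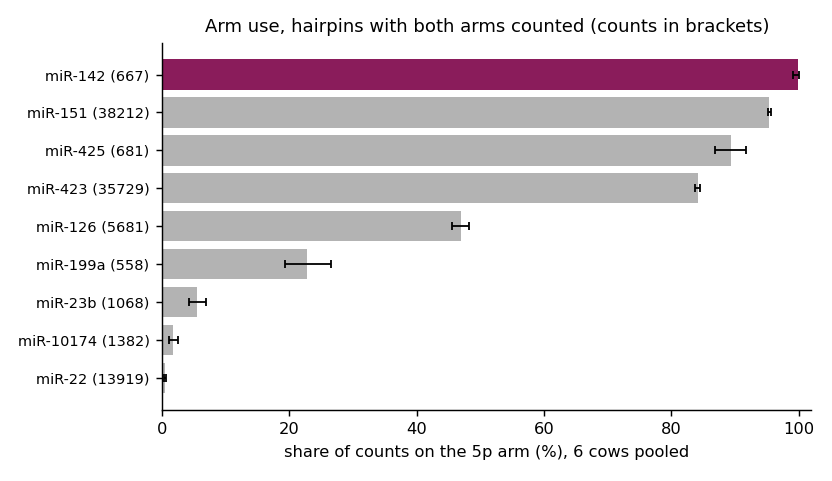
Share of the counts on the 5p arm (%, horizontal axis) for the 9 hairpins with both arms counted and at least 100 counts, 6 cows pooled, with miR-142 in purple and the counts in brackets. Bars start at 0 and error bars are 95% Clopper-Pearson intervals. Only reads counted on the listed mature sequences enter, and of these miR-142 had 99.85% on the 5p arm, whereas miR-22 had 0.438% there.

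Within the miR-181 family, bta-miR-181a took most of the counts. It held 90.1% ± 5.90 (SD, n = 6) of them, bta-miR-181b 9.27% ± 4.80 (SD, n = 6) and bta-miR-181d 0.640% ± 1.57 (SD, n = 6), where the last value rests on 1 cow. In the control cows the share of bta-miR-181b was 7.24%, 10.1% and 6.83% of 428, 911 and 249 counts. In replacement cows 1 to 3 it was 2.37% (1.47% to 3.60%), 13.7% (11.0% to 16.8%) and 15.4% (12.3% to 18.8%) of 886, 562 and 495 counts. The replacement cows thus lay on both sides of the control cows. With bta-miR-181d at 3.84%, replacement cow 3 had the lowest share of bta-miR-181a, 80.8%.

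The comparison of diets asked whether the replacement of alfalfa hay changed these miRNAs. None of them was found to differ. In edgeR's quasi-likelihood test over 227 miRNAs that passed the filter on low counts, 0 (0%) had an adjusted p under 0.05 and 8 (3.52%) had an unadjusted p under 0.05. Of the members, 4 passed the filter, and 0 of them had an unadjusted p under 0.05. DESeq2 called 3 of 767 (0.391%) and edgeR without a filter 15 of 779 (1.93%), and 0 of the 6 members were among them in either case. On shares, 8 of the 103 known miRNAs counted in every cow (7.77%) did not overlap between diets, and 0 of the 4 members among these 103 were of that kind. For the other 2 members, with counts in 1 cow, zeros fix the overlap.

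The share of bta-miR-150 averaged 1.73% ± 0.366 in the control cows and 1.30% ± 0.477 in the replacement cows (SD, n = 3 each). A two-sided exact permutation test gave p = 0.2, and 0.1 is the smallest p that 3 cows against 3 allow. Its log2 fold change, replacement over control, was -0.46 with a standard error of 0.39 (95% interval -1.37 to 0.44, edgeR, Benjamini-Hochberg adjusted p = 0.986). Outside the red blood cell list the shares were 1.99% ± 0.474 and 1.43% ± 0.555, control against replacement cows (SD, n = 3 each, exact permutation p = 0.2, two-sided). The sign of the log2 fold change depended on the scaling. With library size alone it was 0.14, but that scaling moved the median of all tested miRNAs from 0.03 to 0.62, and relative to the median bta-miR-150 was at -0.48 there and at -0.49 with TMM. As RPM, the deposited counts scaled by 1 total of reads per cow, bta-miR-150 had 139 ± 98.9 RPM in the control cows and 107 ± 31.8 RPM in the replacement cows (SD, n = 3 each, exact permutation p = 0.9, two-sided).

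For bta-miR-181a the shares were 0.483% ± 0.0943 in the control cows and 0.522% ± 0.0457 in the replacement cows (SD, n = 3 each, exact permutation p = 0.7, two-sided). Its log2 fold change was 0.13 with a standard error of 0.41 (95% interval -0.83 to 1.08, adjusted p = 0.986, edgeR). Its sign rested on single cows, as it was -0.16 without control cow 3 and -0.07 without replacement cow 1.

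The rarer members left wide intervals. The log2 fold change of bta-miR-142-5p was 0.20 with a standard error of 0.90 (95% interval -1.87 to 2.28) and that of bta-miR-181b was 0.40 with a standard error of 0.93 (95% interval -1.74 to 2.55), both with an adjusted p of 0.986 (edgeR). Their shares were 0.103% ± 0.0847 against 0.127% ± 0.0924 for bta-miR-142-5p and 0.0429% ± 0.0147 against 0.0670% ± 0.0499 for bta-miR-181b, control against replacement diet (SD, n = 3, two-sided exact permutation tests, p = 0.7 and p = 0.5). Without control cow 1 the fold change of bta-miR-142-5p was -0.30, and without replacement cow 3 it was -0.27. Both intervals include a log2 fold change of 1 in either direction, so a change of that size is not excluded for them. Nor is it excluded downwards for bta-miR-150 and upwards for bta-miR-181a. The remaining members, bta-miR-181d and bta-miR-142-3p, did not pass the filter (two-sided exact permutation tests on shares, p = 1 for each). Their fold changes in the fits that keep them rest on the counts of 1 cow and are not given.

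**Figure D5:**
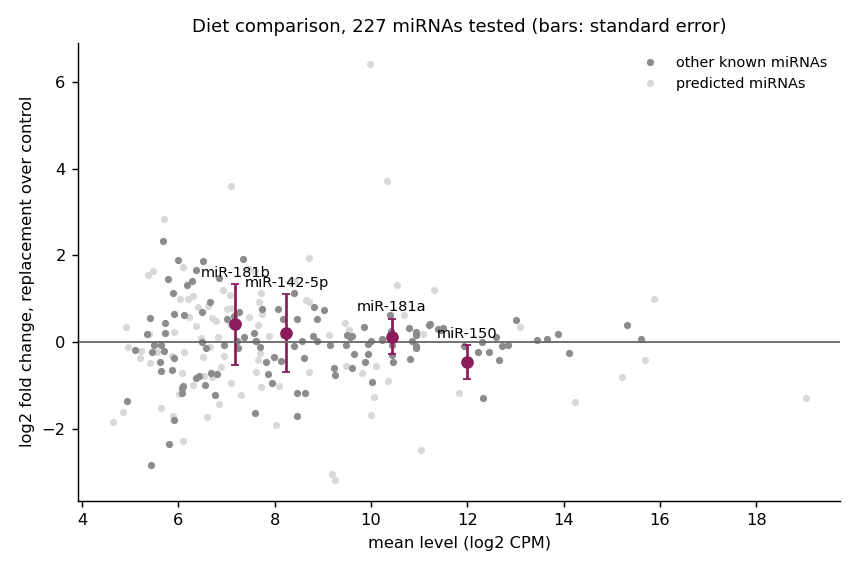
Log2 fold change, replacement over control diet (vertical axis), against mean level (log2 CPM) for the 227 miRNAs tested with edgeR, with known miRNAs in dark grey, predicted ones in light grey and the 4 tested members in purple with bars of 1 standard error. The members lie between -0.46 and 0.40, and the bars of 3 of the 4 cross 0.

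Other leukocyte miRNAs were counted beside these members. All 9 of the list were in the table and 7 were in every cow. Their summed share ran from 2.03% in control cow 3 to 2.60% in control cow 2. Most of it was bta-miR-21-5p at 1.03% ± 0.239 (SD, n = 6), which many cell types express, and bta-miR-342 at 0.708% ± 0.0599 (SD, n = 6). Next came bta-miR-29a at 0.221% ± 0.0797 (SD, n = 6) and bta-miR-146a at 0.132% ± 0.0757 (SD, n = 6), a brake on Toll-like receptor signalling. The share of bta-miR-146b was 0.113% ± 0.0828 (SD, n = 6). Lower were bta-miR-223 at 0.0480% ± 0.0319 (SD, n = 6), which marks myeloid cells, and bta-miR-155 at 0.0455% ± 0.0248 (SD, n = 6), which rises in activated lymphocytes and macrophages. The rarest were bta-miR-29c, without a count in 3 cows, and bta-miR-29b, without a count in 5. Outside the red blood cell list the sum was 2.36% to 2.89%, with its lowest value in control cow 1 and its highest in replacement cow 3. In the diet comparison 7 of the list were tested, 0 were called by edgeR, 3 had positive and 4 negative log2 fold changes, and the median was -0.08 against 0.03 over all 227 tested miRNAs.

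The mammary epithelium list held 0.749% to 1.63% of the known counts, with 9 of 9 miRNAs in the table and 3 in every cow. Its highest members were bta-miR-148a at 0.639% ± 0.192 (SD, n = 6) and bta-miR-30a-5p at 0.380% ± 0.125 (SD, n = 6). In the epithelial miR-200 family, bta-miR-200a had 200 counts in all, 92 of them in control cow 1, at a mean share of 0.0385% ± 0.0492 (SD, n = 6). The others were lower, with 57 counts of bta-miR-200c, 21 of bta-miR-429, 20 of bta-miR-141 and 2 of bta-miR-200b over the 6 cows. Between diets, 5 miRNAs of the mammary epithelium list were tested and 0 were called. Their log2 fold changes were positive for 1 and negative for 4, with a median of -0.40. Of the red blood cell list, 7 miRNAs were tested between diets and 0 were called, with 7 negative log2 fold changes and a median of -0.64. The median over all 227 tested miRNAs was 0.03. The summed share of the red blood cell list was 12.8% ± 6.65 in the control cows and 8.99% ± 2.25 in the replacement cows (SD, n = 3 each), with its maximum in control cow 3. The part of red blood cells in the diet values of the lymphoid miRNAs was not tested.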

How the data were processed

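The 6 miRNAs, the lists and the tests were chosen with earlier results of these data known. Small RNA was measured in milk EVs of 6 cows, and the columns were matched to diets by the sample titles. According to the methods and the submitters' processing notes, the authors trimmed reads with cutadapt 1.14 and aligned them to ARS-UCD1.2 (Bowtie is named). Rfam served to filter out other RNA, miRBase to name known miRNAs and miRDeep2 to predict others. The deposited counts are whole reads on each mature miRNA, not normalized. A deposited table of RPM, named TPM, holds these counts scaled by 1 total per cow. A further table with the authors' own comparison of the diets (fold changes, test statistics and p-values) was not used.

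Shares of the counts of known miRNAs were computed per cow, with mean and SD over cows. Diets were compared per miRNA over the whole table with edgeR 4.0.16 (TMM, filterByExpr, quasi-likelihood test, Benjamini-Hochberg) in R 4.3.3, with the standard error taken as the log2 fold change over the root of F, and alternatively with limma 3.58.1 and DESeq2 1.42.0. Single shares were compared by exact permutation tests (scipy 1.17.1). The tests across miRNAs were tested on simulated data. Likeness used a pseudocount of 0.5 counts. The text names the members, their neighbours in level, profile and sequence, and the marker lists. Sequences are those of the deposited table. Alternatives were other normalizations, filters, tools, totals and rows, a replicate block and each cow left out. No pair of cows on a diet agreed within sampling noise (chi-square per degree of freedom 63.2 or more). The p-values set the difference between diets against the spread between cows.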

Additional observations from a re-analysis of the deposited data

Results flagged for a closer look

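Of 14 values checked over the 6 cows (the share of each miRNA, the ratios between members and the shares within the miR-181 family), 6 had a cow far from the other 5. For 3 of them this is fixed by zeros, as the miRNA was counted in 1 cow. Of the other 11 values, 3 had a cow apart, and these 3 are ratios that share miRNAs. A rate of 5% would give 0.55 by chance, but that rate is for normally distributed values. The ratios were checked without logs, so no excess over chance is read from them. The ratio of bta-miR-150 to bta-miR-142-5p was 76.8 in control cow 1 and 7.93 to 18.7 in the others, and that of bta-miR-181a to bta-miR-142-5p was 33.1 in the same cow and 2.04 to 7.82 in the others. Both rest on the 12 counts of bta-miR-142-5p in that cow. The ratio of bta-miR-181a to bta-miR-181b was 41.2 in replacement cow 1, which had 21 counts of bta-miR-181b, and 5.26 to 13.6 in the others. In replacement cow 3, bta-miR-181d held 0.0273% of the known counts and 3.84% of the miR-181 counts, against 0 in every other cow. The 1 count of bta-miR-142-3p, 0.00164% of the known counts of control cow 3, lies below the limit that 3 counts set.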

How the results depend on the processing

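No member was called under any of the 14 alternatives of the diet comparison, and adjusted p-values of the 4 tested members ran from 0.613 to 0.999. Over all miRNAs, the number called moved from 0 to 15 with no filter and to 3 with DESeq2, and it ran from 0 to 1 with a cow left out (1 without control cow 2 and 1 without control cow 3). The log2 fold changes reversed in 6 of 56 cases. For bta-miR-150 it was 0.14 with library size alone, for bta-miR-181b -0.026 with limma-voom, for bta-miR-142-5p -0.30 without control cow 1 and -0.27 without replacement cow 3, and for bta-miR-181a -0.16 without control cow 3 and -0.07 without replacement cow 1. With a cow left out, they ran from -0.70 to -0.10 for bta-miR-150, from -0.16 to 0.40 for bta-miR-181a, from -0.30 to 0.57 for bta-miR-142-5p and from 0.03 to 0.95 for bta-miR-181b. The cause was not tested.

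With the cow number as a replicate block, the log2 fold changes were -0.42 for bta-miR-150, 0.15 for bta-miR-181a, 0.56 for bta-miR-142-5p and 0.21 for bta-miR-181b, and 0 miRNAs were called. The deviations of same-numbered cows correlated at -0.11, -0.16 and 0.18, and those of differently numbered cows at -0.26 to 0.32. These few values cannot decide whether the number marks a block.

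With known and predicted miRNAs as the total, the mean shares moved to 0.403% for bta-miR-150, 0.143% for bta-miR-181a, 0.0301% for bta-miR-142-5p and 0.0153% for bta-miR-181b, as the total is larger. On that total the diet difference of bta-miR-150 turned from -0.432 to 0.0381 percentage points. This total scales all known miRNAs of a cow by the share of known miRNAs in all counts of that cow. That share was 22.1% ± 6.62 in the control cows and 34.3% ± 8.19 in the replacement cows (SD, n = 3 each). The diets overlapped in it, with 29.0% in control cow 2 and 25.7% in replacement cow 3. Differences in share also reversed for bta-miR-181a, to -0.0131 without control cow 3 (range -0.0131 to 0.0788 with a cow left out), and for bta-miR-142-5p, to -0.0194 without control cow 1 and -0.0295 without replacement cow 3 (range -0.0295 to 0.0653). The 5p share of miR-142 was 99.80% to 100% with a cow left out, and 100% without control cow 3. The totals outside the red blood cell list and the RPM scale were chosen after seeing the data. Counts of 12 to 170 for bta-miR-142-5p and 17 to 92 for bta-miR-181b limit what can be seen of these miRNAs.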
